A study of Mus musculus with 26 samples.

Results

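The patterning factors described here are 10 transcription factor genes that mark the progenitor domains of the ventral and dorsal spinal cord: Olig1, Olig2, Nkx6-1, Nkx6-2, Nkx2-2, Nkx2-9, Pax6, Pax3, Pax7 and Irx3. They were taken by symbol from a table of 37450 gene IDs, where each symbol had 1 row. Mouse embryonic stem (ES) cells were differentiated towards spinal motor neurons, and RNA depleted of ribosomal RNA was measured in 1 library on each of days 0, 4, 5 and 6. The day 0 library was untreated ES cells. The day 4 library, called motor neuron progenitors in the labels, had received 1 uM retinoic acid and 0.25 uM of the Hedgehog agonist SAG on day 2. The day 5 and day 6 libraries, called postmitotic motor neurons, had received the same factors and in addition the Notch pathway blocker DAPT at 5 uM, on day 4 for the day 5 library and on days 4 and 5 for the day 6 library. The growth labels name HBG3 for days 0 and 4 and iCre for days 5 and 6, while the cell type labels name Ainv15 throughout, so day and line cannot be told apart in the comparison of day 5 with day 4. The cultures are bulk samples in which fewer cells of a type and less RNA per cell cannot be told apart, and no differentiated culture without SAG was among the RNA libraries. How the 3 names of lines relate to each other is not said in the labels.

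In the developing neural tube, Sonic hedgehog from the notochord and floor plate forms a gradient that patterns ventral progenitors. Homeodomain and basic helix-loop-helix factors read it: so-called class II factors such as Nkx6-1, Nkx2-2 and Olig2 are switched on by the signal, and class I factors such as Pax6, Irx3, Pax3 and Pax7 are limited by it. Pairs of these factors repress each other and so sharpen domain borders, among them Olig2 with Irx3 and Nkx2-2 with Pax6. Olig2 together with Nkx6-1 marks the progenitors of motor neurons, Nkx2-2 and Nkx2-9 mark the most ventral neuronal progenitors, which give V3 interneurons, and Pax3 and Pax7 mark dorsal progenitors.

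RefSeq promoter sequences (build GRCm38.p6, 250 bases before to 50 bases after the start) were found for 8 of the 10 genes, with 9 promoters in all because Pax6 has 2. Olig1 and Pax3 had no entry. The promoters of Olig2, Nkx2-9 and Pax6 are shown because these genes were at least 2-fold lower on day 5 than on day 4 and again on day 6 than on day 5, on the scale given with the comparisons, and that of Nkx2-2 because this gene was listed only from day 5. They lie at chr16:91225300-91225599 (Olig2, plus strand), chr12:56613235-56613534 (Nkx2-9, minus strand), chr2:105668646-105668945 and chr2:105682213-105682512 (Pax6, plus strand) and chr2:147186353-147186652 (Nkx2-2, minus strand). Each is written 5′ to 3′ on the strand of its gene, with capitals at matches to any of 8 searched motifs.
Olig2: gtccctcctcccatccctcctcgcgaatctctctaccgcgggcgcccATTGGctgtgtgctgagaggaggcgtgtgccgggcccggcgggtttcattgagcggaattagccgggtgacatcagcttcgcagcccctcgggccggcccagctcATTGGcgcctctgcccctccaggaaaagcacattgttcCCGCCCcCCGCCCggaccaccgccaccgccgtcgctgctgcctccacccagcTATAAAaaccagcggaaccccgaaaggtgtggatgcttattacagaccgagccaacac
Nkx2-9: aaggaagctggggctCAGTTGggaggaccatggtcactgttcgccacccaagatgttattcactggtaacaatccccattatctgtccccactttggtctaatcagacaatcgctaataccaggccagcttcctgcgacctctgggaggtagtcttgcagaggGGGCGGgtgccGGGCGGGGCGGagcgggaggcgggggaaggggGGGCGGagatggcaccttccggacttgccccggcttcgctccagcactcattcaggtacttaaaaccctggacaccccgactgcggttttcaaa
Pax6, the promoter at lower coordinates: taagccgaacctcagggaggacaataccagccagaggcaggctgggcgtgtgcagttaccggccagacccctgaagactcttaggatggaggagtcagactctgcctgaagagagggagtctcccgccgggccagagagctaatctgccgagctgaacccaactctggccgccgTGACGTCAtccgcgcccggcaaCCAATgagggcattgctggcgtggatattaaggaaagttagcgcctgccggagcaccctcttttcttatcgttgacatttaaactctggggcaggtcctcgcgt
Pax6, the promoter at higher coordinates: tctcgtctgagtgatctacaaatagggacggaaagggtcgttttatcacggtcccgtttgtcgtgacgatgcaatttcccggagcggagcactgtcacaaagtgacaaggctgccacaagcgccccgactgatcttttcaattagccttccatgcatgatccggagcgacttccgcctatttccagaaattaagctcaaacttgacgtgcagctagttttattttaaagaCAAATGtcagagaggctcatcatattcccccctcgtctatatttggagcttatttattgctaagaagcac
Nkx2-2: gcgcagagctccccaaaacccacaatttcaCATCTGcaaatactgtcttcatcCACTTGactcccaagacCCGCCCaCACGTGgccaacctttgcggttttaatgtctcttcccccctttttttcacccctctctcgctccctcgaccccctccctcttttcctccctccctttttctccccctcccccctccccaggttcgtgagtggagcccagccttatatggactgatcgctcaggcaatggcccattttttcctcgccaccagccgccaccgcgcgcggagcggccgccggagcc

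The motifs were searched on both strands: the E-box CANNTG, the homeodomain core TAATTA, the Gli site TGGGTGGTC, the nuclear receptor motif AGGTCA, the cAMP response element TGACGTCA, the TATA box TATAAA, the CCAAT box CCAAT and the GC box GGGCGG. The 9 promoters held 22 matches, none of which overlapped a match of another motif, while 1 pair of GC boxes in the Nkx2-9 promoter overlapped. Matches are of letters only, and whether any of them is in use was not tested. The Olig2 promoter held the letters of a TATA box at −8 from the start site, 2 CCAAT boxes and 2 GC boxes. The Nkx2-9 promoter held 4 GC boxes and 1 E-box. The Pax6 promoter at lower coordinates held the cAMP response element and 1 CCAAT box, and the promoter at higher coordinates 1 E-box. Nkx2-2 had 3 E-boxes and 1 GC box. Of the promoters not shown, those of Nkx6-1 and Irx3 held no match. Over all 32851 promoters of the table, 72.3% held an E-box, 37.4% a CCAAT box, 35.7% a GC box, 13.6% a TATA box and 1.79% the cAMP response element. The letters of the homeodomain core (5.29% of all promoters), of the nuclear receptor motif (16.3%) and of the Gli site (0.253%) occurred in none of the 9 windows.

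Levels are the deposited FPKM, a unit that divides the fragments of a gene by its length and by the size of the library. Reads per library are not known. The libraries each summed to between 194612 and 255225 FPKM over all genes, with 10145 to 10509 genes at 1 FPKM or more. The summed FPKM of the 10 genes on days 0, 4, 5 and 6 was 4.42, 173.5, 62.1 and 30.3. In the same order, 3, 7, 8 and 4 of the 10 genes reached 1 FPKM. Olig1, Olig2 and Nkx6-2 were detectable in ES cells at 1.08, 1.87 and 1.08 FPKM. Of the 8 genes that reached 1 FPKM on any day, 7 were highest on day 4, and Nkx2-2 was highest on day 5. For Nkx6-1 this depended on scaling. After the rescaling given with the comparisons it stood at 16.2 on day 4 and 17.1 on day 5. Pax3 and Pax7 stayed below 0.1 FPKM on all 4 days. With 1 library per day there is no replicate spread, so no order between neighbouring levels below could be tested.

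**Figure D1:**
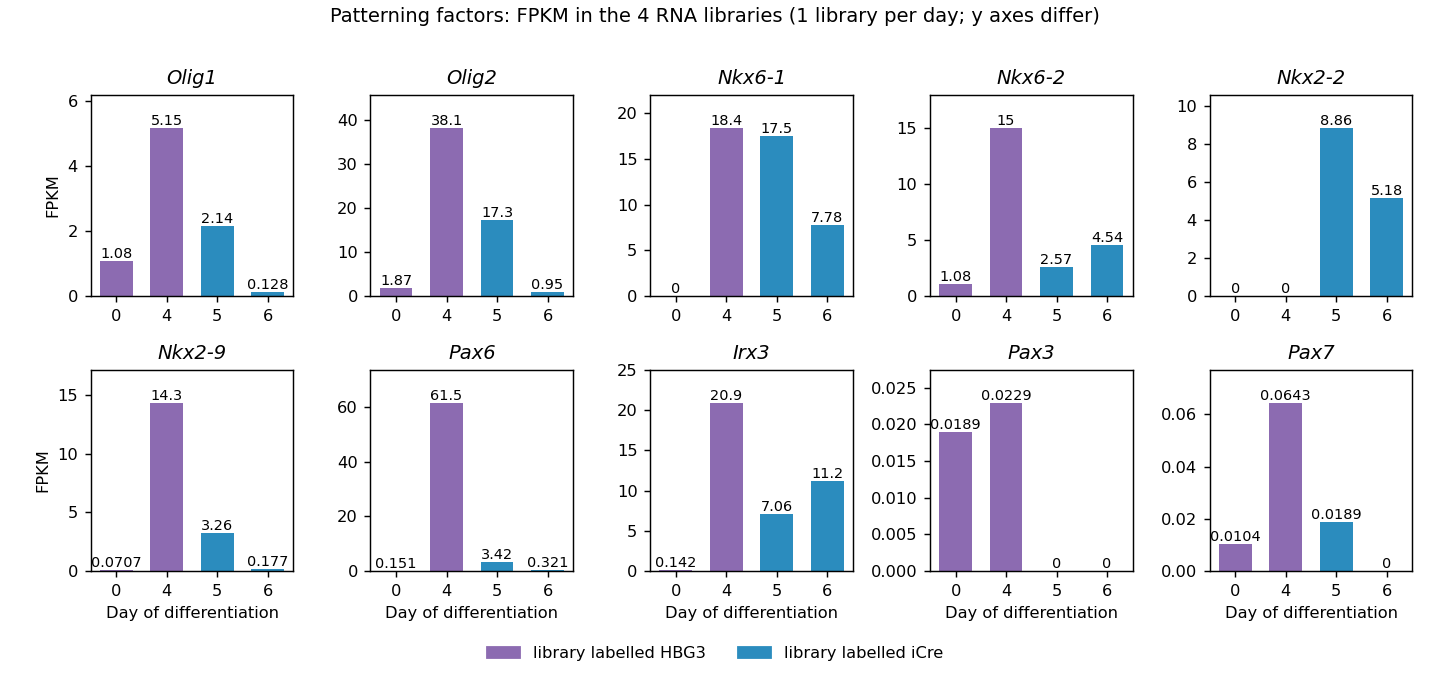
FPKM (y axis, linear, scale differing by panel) of each of the 10 patterning factors in the RNA libraries of days 0, 4, 5 and 6 (x axis), 1 bar per library with its value above it and colour for the line named in the growth label. Olig2, Pax6 and Nkx2-9 stand highest on day 4 at 38.1, 61.5 and 14.3 FPKM, Nkx2-2 appears on day 5 at 8.86 FPKM, and Pax3 and Pax7 stay below 0.1 FPKM.

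The comparison of day 4 with day 0 covers the step from ES cells to cells exposed to retinoic acid and SAG. A gene was called higher or lower where the difference of log2(FPKM + 1) reached 2-fold, provided that 1 of the 2 libraries held at least 1 FPKM of it. This scale understates the change of low genes. Of the 10 factors, 7 reached 1 FPKM in either library and all 7 were called higher on day 4, while 19.3% of all 11482 genes measured at this step were higher and 11.9% lower. Of these 7, Nkx6-1, Nkx2-9, Pax6 and Irx3 were below 1 FPKM on day 0 so that only a higher level on day 4 brought them over the minimum, which fixed their calls. Nkx2-2, Pax3 and Pax7 were below 1 FPKM in both libraries. When FPKM were instead rescaled by the median ratio between libraries (log2 shifts of 0.26 at this step and −0.15 at each later one), all 7 factors were still higher, with 13.9% of all genes measured higher. Of all called genes, 47.4% were then higher, in place of 61.9%.

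Among the class II genes, Olig2, a basic helix-loop-helix repressor needed for motor neuron and oligodendrocyte progenitors, stood at 38.1 FPKM on day 4, against 1.87 FPKM on day 0. The difference was 3.77 on the log2(FPKM + 1) scale, and the day 4 level lay above that of 94.7% of the genes detected in that library. Its neighbour on chromosome 16, Olig1, a related factor of the oligodendrocyte lineage, stood at 5.15 FPKM on day 4 and 1.08 FPKM on day 0, a difference of 1.56. Nkx6-1, which is needed for motor neuron identity, was listed at 18.4 FPKM on day 4 and at 0 on day 0, so no fold is given. It was 1 of 8 genes listed at 0 on day 0 with at least 5 FPKM in each of the other 3 libraries. Nkx6-2, its closest relative, stood at 15.0 FPKM on day 4, against 1.08 FPKM on day 0, a difference of 2.95. Nkx2-9, a marker of the most ventral progenitors, stood at 14.3 FPKM on day 4 and 0.0707 FPKM on day 0, a difference of 3.84.

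The class I genes Pax6 and Irx3 were also higher on day 4. Pax6, a paired-box factor of ventral and intermediate neural progenitors, stood at 61.5 FPKM on day 4, against 0.151 on day 0, a difference of 5.76 and the largest among the 10 genes. It made up 35.4% of the summed FPKM of the 10 factors on day 4. Irx3, an Iroquois homeodomain factor found dorsal to the motor neuron domain, stood at 20.9 FPKM on day 4 and 0.142 FPKM on day 0, a difference of 4.26. RNA of Olig2 and of Irx3 was thus present in the same day 4 library, in which the FPKM ratio of Olig2 to Irx3 was 1.83. Whether the same cells held both was not measured in these bulk libraries.

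The dorsal genes stayed at the floor of the table. Pax3, a paired-box factor of dorsal neural tube, neural crest and muscle precursors, was listed at 0.0189 FPKM in the day 0 library, at 0.0229 in that of day 4 and at 0 in both later ones. Pax7, its close relative, was listed at 0.0104, 0.0643, 0.0189 and 0 FPKM on days 0, 4, 5 and 6. Of 7 neural crest and roof plate markers, none reached 1 FPKM from day 4 on, and on day 0 Foxd3 alone did, at 3.11 FPKM. The 3 muscle factors Myf5, Myod1 and Myog reached at most 0.119 FPKM in any library. Of 13 markers of V0, V1 and dorsal interneurons, 0 reached 1 FPKM on days 0 and 4, 2 on day 5 and 1 on day 6.

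The comparison of day 5 with day 4 covers the exit from the progenitor state, together with the start of DAPT and the change of the named line. Of the 8 factors measured, 5 were lower on day 5 and 1 was higher, while 14.7% of all 11339 genes measured at this step were lower and 11.5% higher. The lower genes were Pax6, Nkx6-2, Nkx2-9, Irx3 and Olig2, and the higher gene was Nkx2-2. The 5 lower genes were all above 1 FPKM on both days, while Nkx2-2 passed the minimum through day 5 alone, which fixed the direction of its call. The median difference was −1.27 over the 8 factors and −0.11 over all genes measured. Pax6 showed the largest difference, at 3.42 FPKM on day 5 against 61.5 FPKM on day 4, which is −3.82 on the log2(FPKM + 1) scale. Nkx6-2 stood at 2.57 FPKM on day 5 and 15.0 FPKM on day 4 (−2.17), and Nkx2-9 at 3.26 FPKM on day 5 and 14.3 FPKM on day 4 (−1.85). Irx3 stood at 7.06 FPKM on day 5 and 20.9 FPKM on day 4 (−1.44).

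The Olig genes and Nkx6-1 differed less at this step. Olig2 stood at 17.3 FPKM on day 5, against 38.1 FPKM on day 4, a difference of −1.10 that was −0.95 after rescaling and then within 2-fold. Rescaling thus left 4 factors lower, where 11.6% of all genes measured were lower. Olig1 stood at 2.14 FPKM on day 5 and 5.15 FPKM on day 4, a difference of −0.97 that passed 2-fold, at −1.23, with a pseudocount of 0.1 FPKM. Nkx6-1 was nearly level, at 17.5 FPKM on day 5 and 18.4 FPKM on day 4, a difference of −0.07 that was 0.07 after rescaling. The paralogs Nkx6-1 and Nkx6-2 thus parted in the day 5 library. The FPKM ratio of Nkx6-1 to Nkx6-2 was 1.23 on day 4, 6.82 on day 5 and 1.71 on day 6. This ratio is taken within each library and so is free of library scaling.

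Nkx2-2, a homeodomain factor of V3 and later of oligodendrocyte progenitors, was listed at 0 on days 0 and 4, at 8.86 on day 5 and at 5.18 on day 6, in FPKM. Both libraries at 0 carry the HBG3 label and both others the iCre label. It was 1 of 4 genes, with Wscd2, AL591584.1 and a U6 entry, that were listed at exactly 0 in both HBG3 libraries and at 5 FPKM or more in both iCre libraries. In the opposite direction 2 entries were found, Rps15a-ps8 and G3bp2, a stress granule protein gene used in many cell types that stood at 118.0 FPKM on day 0 and 32.6 FPKM on day 4. A broader set of 97 genes lay below 1 FPKM in both HBG3 libraries and at 5 FPKM or more in both iCre libraries, Nkx2-2 among them. An exact 0 can be a failed estimate, so no fold is given for Nkx2-2, and whether the day, the line or the estimate accounts for its 0 on day 4 was not tested. The protein-coding genes next to it on chromosome 2, Nkx2-4 and Pax1, stayed at or below 0.180 FPKM in all libraries.

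Markers of V3 interneurons and floor plate were also higher in the later libraries, though highest on day 6 and not on day 5. The 4 markers summed to 0.221, 2.66, 4.47 and 10.35 FPKM on the 4 days, with 0, 1, 2 and 3 of them at 1 FPKM or more. Foxa2, a floor plate factor, stood at 0.207, 2.49, 2.80 and 3.33 FPKM on the 4 days. Sim1, a V3 factor, stood at 0.0131, 0.0166, 0.529 and 3.24 FPKM, and Shh itself was listed at 0, 0.155, 1.05 and 3.23 FPKM. Ferd3l stayed below 1 FPKM in every library. The part of these cells in the Nkx2-2 level was not tested.

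**Figure D2:**
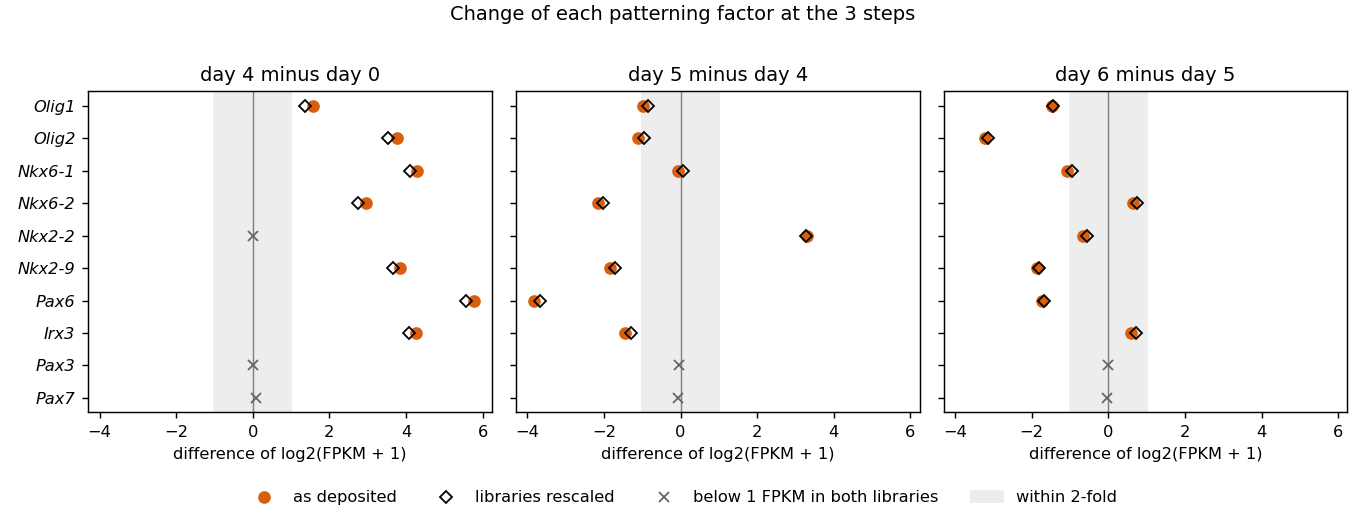
Difference of log2(FPKM + 1) (x axis) for each of the 10 patterning factors (y axis) at the 3 steps, later day minus earlier day, with filled circles for FPKM as deposited, open diamonds after rescaling and crosses for genes below 1 FPKM in both libraries; the grey band is the range within 2-fold. All 7 measured genes lie right of the band on day 4 minus day 0, and on day 5 minus day 4 Pax6 lies furthest left at −3.82 while Nkx2-2, listed at 0 on day 4, lies to the right.

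The comparison of day 6 with day 5, both with the iCre label, covers a further day of culture with DAPT. Of the 8 factors measured, 5 were lower on day 6 and none was higher, while 6.19% of all 11164 genes measured at this step were lower and 6.57% higher. Of the 5, Olig1, Olig2, Nkx2-9 and Pax6 were below 1 FPKM on day 6 and passed the minimum through day 5 alone, so that only a lower call was open to them. The median difference was −1.28 over the 8 factors and −0.07 over all genes measured. Rescaling gave 62.1% higher among all called genes in place of 51.5%. It left 4 factors lower and none higher, where 4.98% of all genes measured were lower and 8.17% higher.

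Olig2 showed the largest difference of this step, at 0.950 FPKM on day 6 against 17.3 FPKM on day 5 (−3.23 on the log2(FPKM + 1) scale). Nkx2-9 stood at 0.177 FPKM on day 6 and 3.26 FPKM on day 5 (−1.86), and Pax6 at 0.321 FPKM on day 6 and 3.42 FPKM on day 5 (−1.74). Olig1 stood at 0.128 FPKM on day 6, against 2.14 FPKM on day 5 (−1.48). The order of these differences depends on the scale. As FPKM ratios of day 5 to day 6, Nkx2-9 gave 18.5, Olig2 18.2, Olig1 16.8 and Pax6 10.7. Each of these ratios rests on a day 6 level below 1 FPKM. On day 6 Olig2 and Olig1 were at 2.49% and 2.48% of their day 4 levels, Nkx2-9 at 1.23% and Pax6 at 0.522%. Among the steps after day 4, the larger differences of Pax6 and of Olig2 thus fell at separate steps. On day 5 Pax6 was at 5.57% and Olig2 at 45.3% of the day 4 level.

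The other 4 measured factors kept more RNA on day 6. Nkx6-1 stood at 7.78 FPKM on day 6 and 17.5 FPKM on day 5, a difference of −1.08 that was −0.94, within 2-fold, after rescaling. Nkx2-2 stood at 5.18 FPKM on day 6 and 8.86 FPKM on day 5 (−0.67). Irx3 stood at 11.2 FPKM on day 6, against 7.06 FPKM on day 5 (0.60), and Nkx6-2 at 4.54 FPKM on day 6, against 2.57 FPKM on day 5 (0.64), both within 2-fold. Irx3, Nkx6-1, Nkx2-2 and Nkx6-2 made up 37.0%, 25.7%, 17.1% and 15.0% of the summed FPKM of the 10 factors on day 6. Olig2 made up 3.14% of it on that day, 27.8% on day 5 and 22.0% on day 4.

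**Figure D3:**
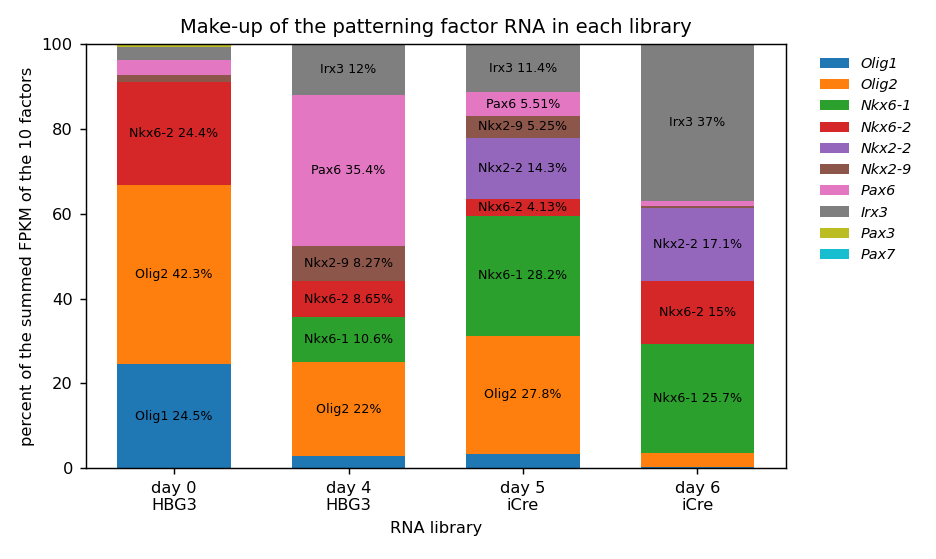
Percent of the summed FPKM of the 10 patterning factors (y axis, from 0 to 100) contributed by each factor in the RNA libraries of days 0, 4, 5 and 6 (x axis), a measure that library scaling does not change. Pax6 leads on day 4 with 35.4%, Nkx6-1 and Olig2 on day 5 with 28.2% and 27.8%, and Irx3 on day 6 with 37.0%.

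Ratios within a library set the mutually repressing pairs side by side. The FPKM ratio of Olig2 to Irx3 on days 0, 4, 5 and 6 was 13.2, 1.83, 2.45 and 0.0847, with Irx3 itself at only 0.142 FPKM on day 0. The ratio of Pax6 to Nkx2-2 was 0.386 on day 5 and 0.0619 on day 6, with Nkx2-2 listed at 0 before. The neighbouring genes Olig2 and Olig1 had a ratio of 7.40 on day 4, 8.06 on day 5 and 7.44 on day 6, against 1.73 on day 0. Nkx6-1 to Olig2 gave 0.482 on day 4, 1.01 on day 5 and 8.19 on day 6. Olig2, Olig1 and Pax6 were all below 1 FPKM on day 6, so the day 6 ratios that hold them rest on low values.

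The profiles over the 4 days were compared as root mean square differences of log2(FPKM + 1) values centred on each gene's mean. This is a description over 4 libraries and says nothing of shared control. Among pairs of factors, Olig2 and Nkx2-9 were nearest (0.49), followed by Nkx6-1 and Irx3 (0.65). Nkx2-2 and Pax6 were farthest apart (3.16). Distances of Nkx2-2 rest on its listing at 0 on days 0 and 4, which can be a failed estimate. The pair distances were taken on the log2(FPKM + 1) scale only, so whether their order holds with another pseudocount was not tested. Among 8687 other genes at 5 FPKM or more on any day, those nearest to Pax6 were Sox3 (0.28), a progenitor factor, Hes5 (0.38), a Notch target, and Mdk (0.49), and these 3 were also the nearest with a pseudocount of 0.1 FPKM. Sox3 stood at 0.332, 44.5, 3.44 and 0.592 FPKM on the 4 days. Those nearest to Olig2 were Prtg (0.33), Sox2ot (0.39) and Sp8 (0.43), and those nearest to Nkx6-1 were Hoxb2 (0.12), Pou3f2 (0.13) and Hoxb5 (0.20). For each of Olig2 and Nkx6-1, 1 of the 3 was kept with the other pseudocount. For Irx3, whose nearest were Prmt3 (0.16), Hoxa4 (0.30) and Sall2 (0.33), none was kept. Prmt3 was listed at exactly 0 on day 0, which can be a failed estimate. Those nearest to Olig1 were Nfatc3 (0.041), Nmral1 (0.12) and Tcf3 (0.13), of which none was kept. Nkx6-2 had Prrc2a (0.19), Nes (0.20), an intermediate filament gene of neural progenitors, and Fhl1 (0.23) nearest. Nkx2-2 had Wscd2 (0.16), Gm7887 (0.17) and Igsf21 (0.18), and Nkx2-9 had Fndc3c1 (0.16), Gpr98 (0.20) and Foxb1 (0.25). For each of Nkx6-2, Nkx2-2 and Nkx2-9, 1 gene was kept. Like Nkx2-2, Wscd2 was listed at 0 on days 0 and 4.

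Genes of the Hedgehog pathway, through which SAG acts, were also highest on day 4, each of the 9 genes read. Of these 9, 7 were higher on day 4 than on day 0 and none lower (median 2.30, against 0.23 over all genes measured, of which 19.3% were higher). Gli1, Hhip, Boc and Gas1 were below 1 FPKM on day 0, so that only a higher call was open to them. On day 5, 7 were lower than on day 4 and none higher (median −1.41, against −0.11 over all genes measured, of which 14.7% were lower and 11.5% higher). Of these 7, Gli1, Gli2, Gli3 and Boc were below 1 FPKM on day 5 and open only to a lower call. On day 6, 3 of 5 measured genes were lower than on day 5, against 6.19% of all genes measured, and 1 of the 3, Hhip, was below 1 FPKM on day 6. Ptch1, the receptor and itself a target of the pathway, stood at 7.72, 59.0, 28.3 and 6.85 FPKM on days 0, 4, 5 and 6. Gli1, a transcription factor switched on by the signal, stood at 0.354, 11.4, 0.404 and 0.0355 FPKM on the same days. Smo, the transducer that SAG binds, stood at 2.90, 23.6, 8.29 and 1.56 FPKM.

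Other transcription factors of progenitor domains were mostly below 1 FPKM. Of 15 genes with a row of their own, 5 reached 1 FPKM on day 0 or 4, and all 5 were higher on day 4. None of them was at 1 FPKM on day 0, so that only a higher call was open to them. After rescaling 4 were higher. Of all genes measured, 19.3% were higher, and 13.9% after rescaling. Irx5, which lies next to Irx3 on chromosome 8, stood at 0.135, 10.1, 6.68 and 13.7 FPKM on days 0, 4, 5 and 6. Neurog1, a proneural factor, stood at 0.0314, 6.55, 4.28 and 0.1996 FPKM on the 4 days. On day 5, 1 of 5 measured genes was lower than on day 4 and none higher. Of all genes measured, 14.7% were lower and 11.5% higher. The lower gene was Dbx1, a factor of the V0 domain named after its value was seen. Dbx1 stood at 0.0625 FPKM on day 5 against 1.21 FPKM on day 4 and was within 2-fold after rescaling. On day 6, 2 of 4 measured genes were lower than on day 5, namely Neurog1 and Bhlhe22, and none was higher (1 after rescaling). Of all genes measured, 6.19% were lower and 6.57% higher. Dbx1 on day 5 and Neurog1 and Bhlhe22 on day 6 were below 1 FPKM, so that only a lower call was open to them. The dorsal factors Gsx1 and Ptf1a were listed at 0 in all 4 libraries.

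**Figure D4:**
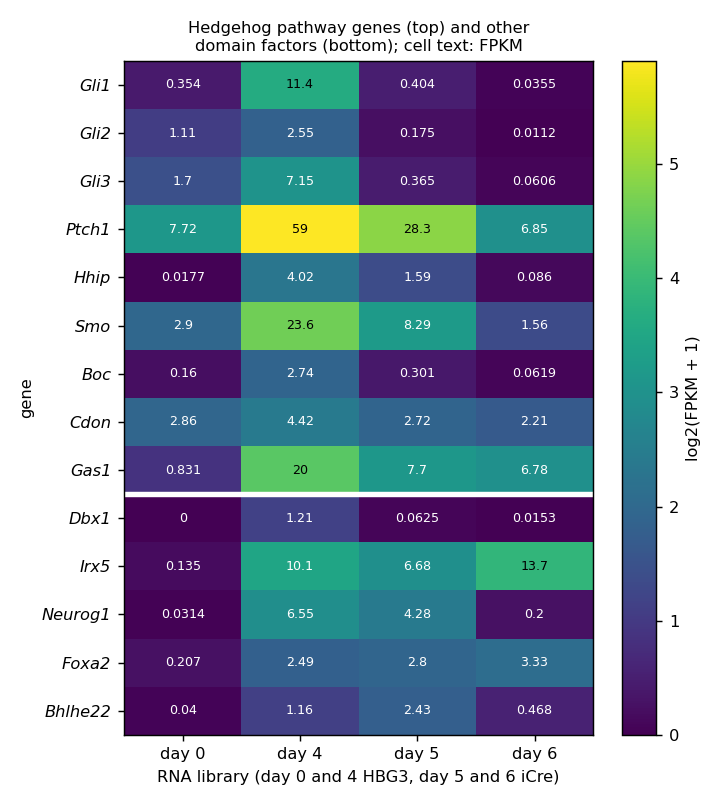
Heat map of log2(FPKM + 1) (colour) for the 9 Hedgehog pathway genes and the 5 other domain factors that reached 1 FPKM on any day (rows), in the RNA libraries of days 0, 4, 5 and 6 (columns), with the FPKM written in each cell. The Hedgehog pathway rows are brightest on day 4, led by Ptch1 at 59.0 FPKM, and Irx5 is brightest on day 6 at 13.7 FPKM.

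Groucho corepressors, which several of these factors recruit to repress their targets, showed no common direction. On day 4, 1 of 5 measured genes was higher than on day 0 (Tle3, within 2-fold after rescaling) and 2 were lower (Tle4 and Tle6). Of all genes measured, 19.3% were higher and 11.9% lower. The 4 genes measured at both later steps stayed within 2-fold. Tle1 stood at 10.7, 17.6, 22.1 and 27.9 FPKM on days 0, 4, 5 and 6, and Aes, a short member of the family, at 11.2, 11.2, 18.9 and 24.6 FPKM.

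In the 4 gene families the 10 factors belong to, the table held 23 further entries. Of these, 4 reached 1 FPKM on any day, and all 4 were Iroquois entries. Irx1 stood at 0.0687, 5.08, 6.64 and 23.4 FPKM on the 4 days, and Irx5 as given before. The other two were both named Irx2, so the reads of that gene may be split, and they stood at 8.50 and 3.51 FPKM on day 6. No further Nkx gene exceeded 0.867 FPKM and no further Pax gene 0.517 FPKM. The antisense genes Pax6os1 and Nkx2-2as reached at most 0.215 and 0.0193 FPKM. No source used here says whether strand was counted, so reads of Pax6 and Nkx2-2 cannot be told apart from those of their antisense partners.

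Markers of other cell states and types also differed between the libraries. Summed over 5 ES cell markers, FPKM was 981.5 on day 0 and 2.35, 0.440 and 0.330 on days 4, 5 and 6. The 4 motor neuron markers summed to 0.736, 10.3, 156.6 and 155.5 FPKM on the 4 days, and the 5 cell cycle genes to 514.6, 539.9, 105.6 and 17.5 FPKM. The 6 neural progenitor markers summed to 158.4, 404.2, 165.9 and 127.0 FPKM. The sum rested largely on Sox2 and Vim on day 0 and largely on Vim on days 5 and 6. On day 4 Vim and Hes5 were the highest of the 6. Vim, an intermediate filament gene of many cell types, stood at 42.7, 181.6, 132.1 and 106.2 FPKM, and Sox2, which ES cells also use, at 112.8, 57.6, 13.0 and 2.25 FPKM. Hes5 stood at 0.119, 83.4, 1.90 and 0.442 FPKM on the 4 days, and like Sox3 it was highest on day 4 and below 1 FPKM on day 6. Of 5 V2 interneuron markers, Sox21 alone reached 1 FPKM, at 18.8 FPKM on day 4 and 1.63 FPKM on day 5. The 6 markers of the oligodendrocyte lineage, in which Olig1, Olig2 and Nkx2-2 also act, summed to 2.23, 3.81, 12.9 and 11.9 FPKM, of which Mbp made 11.5 on day 5 and 9.90 on day 6, while Sox10 did not exceed 0.159 FPKM and Mog was listed at 0 from day 4. The part of these cell types in the levels of the 10 factors was not tested.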

How the data were processed

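Ribosome-depleted total RNA was measured in 4 libraries, 1 per day, and the other 22 of the 26 samples (binding, histone mark and accessibility maps and controls) were not used here because no annotation of their build, mm9, was at hand. The authors deposited 1 FPKM value per gene ID and library. STAR, MACS, HOMER 4.7.2 and Bowtie 0.12.7 appear in the submitters' processing notes without a role, and what computed the FPKM is not given. Depth is unknown. In the lowest values (both libraries under 0.05 FPKM), the most common FPKM ratio was 0.499 for day 0 over day 4 (7.84% of 574 genes), 1.02 for day 4 over day 5 and 1.33 for day 5 over day 6, so whole reads were not recovered.

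Differences of log2(FPKM + 1) were taken for 3 steps where 1 of the 2 libraries reached 1 FPKM and called at 2-fold, with no test because there are no replicates. Alternatives were a pseudocount of 0.1 FPKM, no minimum, and rescaling by the median ratio over 8244 genes at 1 FPKM or more in all libraries. The calls and the rescaling were tested on data simulated from the day 0 values without noise, with large changes in well-expressed genes only. That check could not show how calls fare for low genes, near 2-fold or under spread between libraries. Gene names were those of the deposited table, of which 32798 IDs were found in a table of current names, the 10 factors all under the same symbol. The 10 factors and the lists (other domain factors, Hedgehog pathway, Groucho corepressors, and markers of ES cells, neural progenitors, motor neurons, V3 and floor plate, V2, V0, V1 and dorsal interneurons, oligodendrocytes, neural crest, muscle and cell cycle) were chosen with earlier results of these data known. All 10 factors are named, with the genes of each list that have the highest FPKM, and the 3 nearest profiles to factors that reached 5 FPKM. Gsx2 had no row of its own. The symbol Tle5 had none either, being a newer name of the gene listed here as Aes. Some genes are not reported here and were left out of the lists. Neighbouring genes follow the GRCm38.p6 order. Python 3.11.15, numpy 2.4.6, pandas 2.3.3 and matplotlib 3.10.9 were used.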

Additional observations from a re-analysis of the deposited data

How the results depend on the processing

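Calls of the 10 factors kept their direction under all 3 alternatives, and the counts of factors higher or lower at each step stayed within 1.5 times. The kept direction was fixed in advance. A pseudocount or a minimum cannot reverse the sign of a difference, and the shifts of the rescaling were smaller than the 2-fold of a call. Of the 30 differences of single factors, 2 no longer reached 2-fold after rescaling (Olig2 on day 5 and Nkx6-1 on day 6) and 1 newly reached it with a pseudocount of 0.1 FPKM (Olig1 on day 5). That pseudocount gave 1127 genes higher and 1077 lower on day 6 in place of 734 and 691. Among other domain factors it gave 1 higher on day 5 and 1 higher on day 6 in place of 0. Rescaling gave 1 higher on day 6 and 0 lower on day 5 among other domain factors, and 0 Groucho corepressors higher on day 4 in place of 1. Leaving out the minimum changed none of the counts. This was fixed in advance, because genes below 1 FPKM in both libraries cannot reach 2-fold on the log2(FPKM + 1) scale. For 7 of 8 factors the 3 nearest profiles changed with the pseudocount. The cause of these moves was not tested. No paired analysis was possible because each day has 1 RNA library. Peaks near the start sites were not run for want of an mm9 annotation, and single libraries limit every value.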

Other observations

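Among the protein-coding genes next to the factors in the GRCm38.p6 order, the following were picked after their values were seen. Next to Pax6, Rcn1, an endoplasmic reticulum calcium-binding protein gene, stood at 31.8, 19.8, 4.27 and 3.51 FPKM on days 0, 4, 5 and 6, and Elp4, a subunit of the Elongator complex, at 4.34, 9.73, 6.86 and 6.01 FPKM. Next to Irx3, Fto, an RNA demethylase gene, stood at 6.95, 11.5, 10.3 and 9.65 FPKM. Next to Nkx2-9, Nkx2-1 and Pax9 did not exceed 0.268 FPKM. Next to Pax3, Epha4, an axon guidance receptor gene, stood at 4.13, 5.53, 16.4 and 7.75 FPKM, while Pax3 itself stayed at or below 0.0229 FPKM.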
